A study of Mus musculus with 12 samples.

Results

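The promoters described here are the 1000 bp on either side of every annotated transcription start of a protein-coding gene, on the autosomes of the mouse assembly mm9 with the GENCODE vM1 annotation. All starts of a gene were combined, so each gene has a single promoter, which may consist of several separate windows. Of 21418 such promoters, 11303 (52.8%) held at least 20 CpG calls, meaning reads of a CpG cytosine, in each of the 12 samples and were kept. A further 1206 promoters had 10 to 19 calls in their shallowest sample and 988 of those kept had 20 to 29. The mean methylation level was 26.3% ± 1.25 (SD of 12 samples) in the promoters just outside this limit and 21.8% ± 1.19 in those just inside it. The methylation level is the percent of a promoter's CpG calls that were methylated, and differences between levels are given in percentage points.

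DNA came from oral soft tissue of female B6C3F1/J mice, an F1 hybrid strain, which were 8 weeks old when they entered the study, before quarantine and dosing. Buccal mucosa, the floor of the mouth and the soft tissue on the hard palate were pooled, so each value is a mixture of cell types. DBP (dibenzo[a,l]pyrene, also named dibenzo[def,p]chrysene) is a polycyclic aromatic hydrocarbon of tobacco smoke that causes tumors in this tissue. The DMSO group received the vehicle, and the DBP group received 24 nmol DBP in DMSO in the oral cavity 3 times a week for 5 weeks, with the tissue taken 48 h after the last dose. Of the other groups, DBP+agent received DBP with a chemopreventive agent, left unnamed in the labels, and DBP+BR received DBP and BR extract. Dose and timing of agent and extract are not given in the sources used here. Each group held 3 samples. Whether a sample is a single animal is not stated, so p-values measure only the spread between these samples.

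Enhanced reduced representation bisulfite sequencing (ERRBS) reads DNA cut by MspI at CCGG, so promoters rich in CpG are read best. Kept promoters held a median of 14 CCGG sites and had a median ratio of observed to expected CpG of 0.608, against 2 sites and 0.236 in the 10115 promoters not kept, of which 2390 (23.6%) held no site. Olfactory and vomeronasal receptor genes (symbols Olfr and Vmn) had 10 promoters among those kept and 1423 among those not kept. The samples held 3287367 to 7774032 CpG calls in the DMSO group and 7515975 to 7974299 in the DBP group. DBP+agent had 16908728 to 39615620 and DBP+BR 17712547 to 78889043, so depth and group cannot be told apart in comparisons with these 2 groups. DMSO 2 and DMSO 3, with 5242017 and 3287367 calls, were shallower than every DBP sample. Depth thus also differed in part between DMSO and DBP. In every sample, 8.09% to 12.9% of promoter calls were methylated, against 56.4% to 63.0% of the autosomal calls elsewhere. DBP+BR 1, the deepest library, had the lowest mean correlation to the other samples, 0.861 across 9455 promoters on all calls. With each cytosine read in all 12 samples weighted equally, the lowest was DMSO 3 with 0.943.

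In mammals, most promoters that are rich in CpG, among them those of housekeeping genes, carry little DNA methylation in every tissue. Promoters of germline genes are a known exception, since many are rich in CpG and are methylated and silent in somatic tissue. Imprinted genes carry methylation on the allele of a single parent at their control regions, and many genes have further starts within the gene body, where CpGs are usually methylated.

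The windows of 200 bases printed here each end at a start, and are shown for a methylated and an unmethylated window of like CpG number, a housekeeping gene, a methylated upstream start and a pair of starts of a single gene that differed. Each is written 5′ to 3′ on the strand of the gene, from mm9, with every CpG in capitals. Slc25a31 (a mitochondrial ADP/ATP carrier of the male germline) and Hnrnpab (an RNA-binding protein) were taken from the named methylated and unmethylated promoters, Eef2 (translation elongation factor) from the housekeeping list, and Phf17 and Boll (an RNA-binding protein of the germline) were chosen after their values were seen.
Slc25a31 (chr3:40512577-40512776, + strand): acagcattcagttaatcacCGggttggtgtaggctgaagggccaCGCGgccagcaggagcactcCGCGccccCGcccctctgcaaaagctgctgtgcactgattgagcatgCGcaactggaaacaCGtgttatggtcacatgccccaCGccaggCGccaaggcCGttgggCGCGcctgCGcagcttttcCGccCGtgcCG
Phf17 (chr3:41359456-41359655, + strand): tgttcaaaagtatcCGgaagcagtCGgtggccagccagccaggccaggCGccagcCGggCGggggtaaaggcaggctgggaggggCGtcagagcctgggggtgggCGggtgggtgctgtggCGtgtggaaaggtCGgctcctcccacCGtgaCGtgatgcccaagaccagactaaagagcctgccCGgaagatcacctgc
Hnrnpab (chr11:51420350-51420549, - strand): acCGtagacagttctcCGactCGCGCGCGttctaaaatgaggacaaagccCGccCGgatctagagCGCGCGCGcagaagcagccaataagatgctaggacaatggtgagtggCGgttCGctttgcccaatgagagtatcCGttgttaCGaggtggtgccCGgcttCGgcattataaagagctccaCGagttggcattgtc
Eef2 (chr10:80639176-80639375, + strand): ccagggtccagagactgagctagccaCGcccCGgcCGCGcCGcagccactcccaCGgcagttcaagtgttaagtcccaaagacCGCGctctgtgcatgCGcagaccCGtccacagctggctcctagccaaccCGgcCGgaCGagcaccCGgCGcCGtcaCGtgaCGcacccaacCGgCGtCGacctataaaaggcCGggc
Boll, upstream start (chr1:55420314-55420513, - strand): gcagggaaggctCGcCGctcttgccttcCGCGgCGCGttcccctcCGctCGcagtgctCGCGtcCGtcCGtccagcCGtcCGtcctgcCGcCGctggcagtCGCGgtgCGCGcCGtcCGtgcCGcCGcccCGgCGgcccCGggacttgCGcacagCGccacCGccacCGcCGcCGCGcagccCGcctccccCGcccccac
Boll, downstream start (chr1:55419571-55419770, - strand): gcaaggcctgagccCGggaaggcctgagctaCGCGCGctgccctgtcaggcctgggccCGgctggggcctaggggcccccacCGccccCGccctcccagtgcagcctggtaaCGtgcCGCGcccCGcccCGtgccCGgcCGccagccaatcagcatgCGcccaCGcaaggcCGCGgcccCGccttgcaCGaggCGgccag

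The CpG-rich window of Slc25a31 was methylated and that of Hnrnpab was not, although they hold 17 and 19 CpGs. Slc25a31 had 92.0% methylated calls (range over the 12 samples 78.9% to 97.2%) and Hnrnpab 4.75% (2.07% to 7.95%). Eef2, with 22 CpGs, had 11.3% (4.51% to 17.8%) in this window. The window at the outermost upstream start of Phf17 holds 12 CpGs, and 94.3% of its calls were methylated (90.9% to 97.3%). The start windows of Boll lie within 1 kb of each other and differed in every sample. The upstream window, with 36 CpGs, had 5.74% (2.87% to 16.02%). The downstream window, with 21 CpGs, had 65.4% (50.0% to 85.7%), on only 14 calls in its shallowest sample. Each window was read in part, from 18 of 44 cytosines in Eef2 to 29 of 38 in Hnrnpab.

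The first question was how methylation changes with the distance to the start. Levels were lowest around the start itself and higher on both sides in all 12 samples. In 100 bp bins with at least 10 calls, the mean level by sample was 27.8% to 30.5% (195 promoters) at 1000 to 900 bp upstream and a mean of 8.59% ± 0.460 (SD of 12 samples, 4134 promoters) in the last 100 bp before the start. It was 9.11% in the first 100 bp after the start, 14.02% at 500 to 600 bp downstream and 22.4% ± 0.683 (351 promoters) at 900 to 1000 bp downstream. The share of promoters with over 80% methylated calls followed the same course, with 15.4% in the outermost upstream bin, 0.895% just before the start and 10.8% in the outermost downstream bin. The bins hold different promoters, so the profile is a description across promoters.

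**Figure D1:**
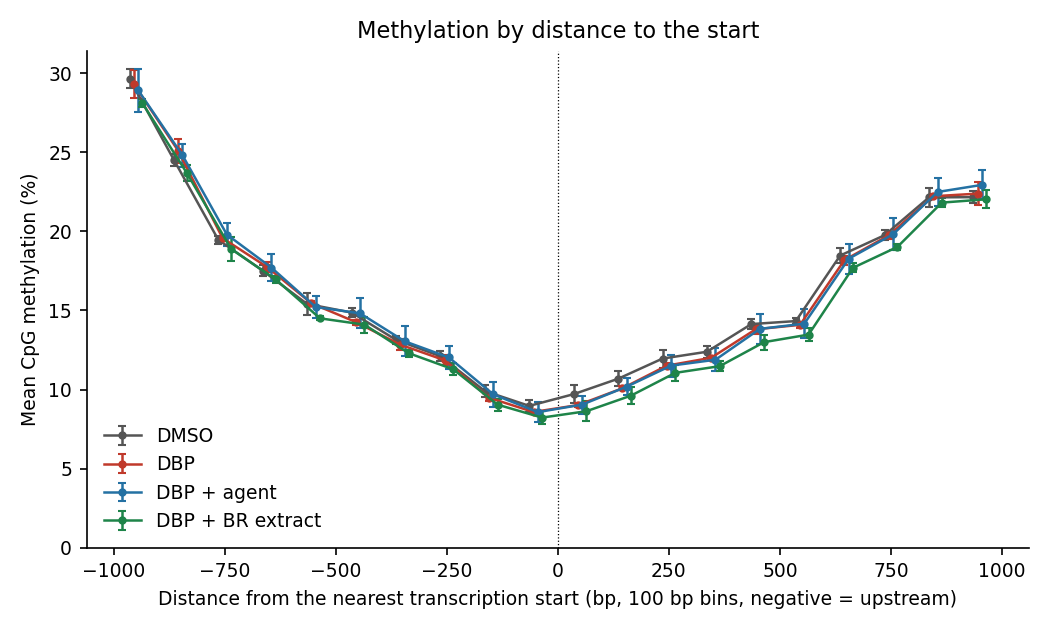
Methylation level (percent of CpG calls) by distance to the nearest start (bp, negative upstream), as the mean over promoters in 100 bp bins for the 4 groups (mean and SD of 3 samples). All groups were lowest around the start and were over 20% in the outermost bin on both sides.

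Within the same promoters, the flank (500 to 1000 bp from a start) was more methylated than the core (within 200 bp). In 1748 promoters with at least 20 calls in both zones in every sample, the core had 8.58% to 11.4% methylated calls by sample and the flank at least 19.6% in each. The difference was 10.6 to 11.4 points in each of the 12 samples. The flank was higher in 1278 promoters (73.1%), with a median of 3.72 points, and by more than 20 points in 342 (19.6%). Group means of the difference lay within 0.377 points of each other (exact permutation test over samples, p = 0.406). With groups permuted only within each replicate number, the exact permutation test gave p = 0.0451, so this call depended on the design assumed.

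The order was the opposite in 470 promoters, and in 36 of them the core exceeded the flank by more than 20 points. Erg, an endothelial transcription factor, had 88.4% methylated calls in the core (80.9% to 100%) and 10.1% in the flank (2.80% to 17.2%). Ppp1r3g, a regulator of glycogen synthesis, had 49.0% and 6.30%, Mbd3, a subunit of a chromatin remodelling complex, 41.4% and 7.24%, and Notch4, a receptor of the vascular endothelium, 39.1% and 6.35%. These 4 genes were chosen after their values were seen. In Erg the 2 zones did not overlap in any sample, although a core in a gene with several starts can belong to another start than its flank.

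Upstream and downstream flanks could be compared in 212 promoters. The upstream flank was higher in all 12 samples, by 1.51 points ± 0.689 (0.353 to 2.46, exact sign-flip permutation test, two-sided, p = 0.000488, the smallest this design allows). The difference was 2.24 ± 0.207 points in the DBP group and 0.823 ± 0.430 in the DMSO group, groups that did not overlap (p = 0.1, exact permutation test, the smallest for 3 against 3). The upstream excess depended on the calls used, and was 0.125 points (p = 0.349, exact) on cytosines read in all 12 samples and -0.659 points (p = 0.00635, exact) with at least 50 calls per zone.

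Promoters were then sorted by their level in every sample. Of the 11303 promoters, 8098 (71.6%) were under 20% in all 12 samples and are called unmethylated, 78 (0.690%) were over 80% in all 12 and are called methylated, and 433 (3.83%) lay between these limits in all 12 and are called intermediate. The other 2694 (23.8%) crossed a limit between samples: 2310 crossed 20% only, 349 crossed 80% only and 35 crossed both. The classes use the measured level, so their levels are no finding, and their other features are described here. The median CpG ratio was 0.673 in unmethylated promoters, 0.362 in intermediate and 0.375 in methylated ones, and the median number of CCGG sites was 14, 15 and 5. Several starts were annotated for 68.0% of unmethylated, 83.1% of intermediate and 34.6% of methylated promoters.

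Promoters with more CpG had lower levels. Among the 2162 kept promoters with a CpG ratio above 0.8 the mean level was 5.58% ± 0.544 (SD of 12 samples), 94.6% were unmethylated and 0 were methylated. The 3771 promoters between 0.4 and 0.6 had a mean of 13.8%, and the 99 kept promoters below 0.2, of 4337 such promoters in all, had 61.0% ± 0.967. Within samples, the Spearman correlation of level and CpG ratio across promoters, which are not independent replicates, was -0.563 to -0.486.

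Among genes with an established symbol, 7 of the 8 deepest methylated promoters belonged to genes of the germline. Provisional symbols (Gm with a digit, or ending in Rik) were left out of this choice, among them Gm10800, Gm10801, 4933415F23Rik and 4932442E05Rik, which were deeper than some of those named. Of the 8, Dmrtb1 (88.0%), Tex101 (88.0%), D1Pas1 (92.2%), Msh4 (91.4%), Slc25a31 (92.2%), Ctcfl (89.9%) and Stra8 (91.8%) act in germ cells or meiosis. Msh4 encodes a MutS homolog of meiotic recombination, Ctcfl the testis paralog of the insulator protein CTCF and Stra8 a regulator of entry into meiosis. D1Pas1, an RNA helicase gene of the testis, had 92.8%, 90.8% and 92.9% in the DMSO samples, 92.2%, 94.0% and 89.9% in DBP, 88.3%, 93.2% and 95.2% in DBP+agent and 91.4%, 90.5% and 95.2% in DBP+BR. The 4 groups overlapped. The eighth was Abhd16b (86.7%).

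The deepest unmethylated promoters included developmental regulators. Tbx1, a T-box factor of the pharyngeal arches, had 8.48% (5.89% to 12.6%), Sfrp1, a secreted Wnt antagonist, 4.57%, and Hnrnpab 2.94% (1.59% to 4.42%). Irf2bp2 (4.32%), Mdga1 (8.64%), Fam19a5 (4.78%), Cd164 (3.70%) and Zfp385b (5.46%) made up the rest of the 8.

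The intermediate promoters named by the same rule were of several kinds. Gnas, an imprinted gene that encodes a G protein subunit, had 28.9% (21.5% to 34.6%). Pik3r2 (a regulatory subunit of PI3 kinase) had 26.1% (22.3% to 30.6%), and Arid1b (a subunit of the SWI/SNF chromatin remodelling complex) 37.1% (29.5% to 45.6%). Dohh (39.0%), Rusc2 (59.2%), Mib2 (37.5%) and Mcf2l (61.1%) were named as well. A level between the limits can come from a share of cells, of alleles or of CpGs, which cannot be told apart in the level of a bulk sample.

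For genes with separate start regions, the share of CpGs could be examined. Of the 148 intermediate promoters with at least 2 measured start regions, 44 held both an unmethylated and a methylated one. Of 5359 genes with at least 2 separate start regions, 951 had 20 or more calls in each sample in at least 2 of them. In 157 of the 951 (16.5%) a region stayed under 20% in every sample while another stayed over 80% in every sample, in 185 all regions were under 20%, and in 3 all were over 80%. Of the 157 genes, 44 were intermediate as whole promoters, 7 unmethylated, 106 crossed a limit and 0 were methylated.

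The unmethylated region was nearly always the upstream one. In 154 of the 157 genes (98.1%) the first region under 20% lay upstream of the first region over 80%. The 3 exceptions, named after their values were seen, were Phf17 (a chromatin reader protein), R3hcc1 and the germline gene Brdt (a bromodomain protein of the testis). Phf17 had 95.03% (90.7% to 97.5%) at the upstream start printed above and 2.94% (0.641% to 3.72%) at the downstream starts. R3hcc1 had 91.1% upstream and 5.10% downstream, and Brdt 91.4% and 7.09%. Of the 169 low regions of these genes, 84.6% held the outermost 5′ start of the gene and 97.6% held the start of a coding transcript. Of the 163 high regions, 3 (1.84%) held the outermost start and 63 (38.7%) the start of a coding transcript. The median CpG ratio was 0.602 in the low regions and 0.294 in the high regions. Over all 951 genes, 67.0% of the low regions held the outermost start and 93.3% the start of a coding transcript. Of the high regions, 2.06% and 38.7% did, and the median CpG ratios were 0.619 and 0.290. The 951 genes include the 157, which hold 163 of the 194 high and 169 of the 1037 low regions. The values of the high regions are therefore close by construction. For the low regions, the coding share and the CpG ratio were similar in both sets, and the share with the outermost start was less so.

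The 8 contrasting genes with the most calls in the shallowest sample all had the upstream region low. In Arid1b the upstream region on chr17:4993332-4997429 had 5.41% (4.24% to 7.66%) and the downstream region on chr17:5340714-5342714 had 94.3% (91.5% to 96.8%). The downstream region took 26.9% to 44.6% of the gene's promoter calls, and the level of the whole promoter ran from 29.5% to 45.6%. In Fat4, an atypical cadherin, the regions had 8.05% (5.88% to 9.83%) and 89.8% (84.97% to 93.4%), the high region took 2.15% to 62.8% of the calls, and the whole promoter ran from 7.72% to 62.2%. Epha2, an ephrin receptor, had 7.07% and 92.8%, with 17.7% to 49.8% for the whole promoter. Snx21 (6.23% and 89.1%), Vars (10.5% and 86.8%), Wdr81 (7.66% and 89.99%) and Zfp536 (4.80% and 90.5%) had the same order, and this choice of 8 genes was made after values were seen. In each of these genes, all 12 samples of the high region lay above all 12 of the low region, as the choice of genes requires.

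**Figure D2:**
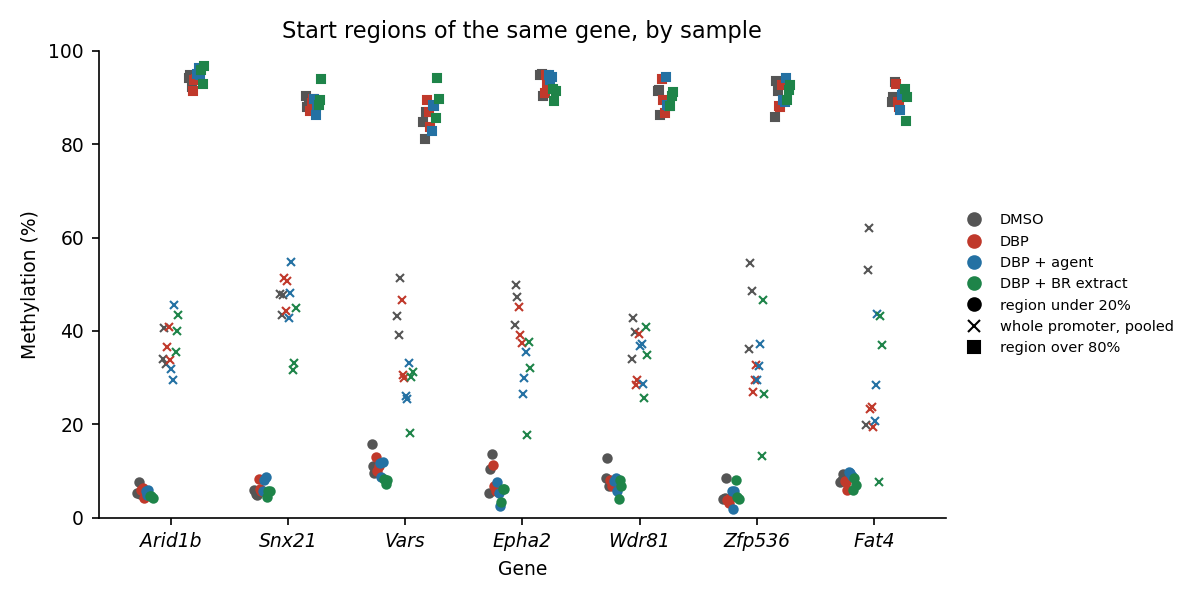
Methylation level (percent of CpG calls) of separate start regions of 7 genes in each of the 12 samples (circles under 20%, squares over 80%, crosses for the whole promoter). In Arid1b and Fat4 the upstream region stayed below 10% and the downstream region above 80% in every sample, while the whole promoter of Fat4 ran from 7.72% to 62.2%.

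Gene lists were compared by their levels, beside a median of 6.92% over all kept promoters. Housekeeping genes were mostly unmethylated, germline genes were the most methylated list and imprinted genes lay between them. Of 25 housekeeping genes, 21 were kept, with a median of 5.96%. Of these, 18 (85.7%) were unmethylated, beside 71.6% of all kept promoters. Actb (cytoplasmic actin) had 5.96% (4.67% to 7.13%), Gapdh (glycolysis) 7.52% (3.81% to 12.0%) and Ppia (cyclophilin A) 3.97% (1.46% to 5.43%). The 3 others, Hsp90ab1 (24.2%, 6.87% to 65.8%), Polr2a (15.8%) and Ldha (11.6%), crossed 20% in a part of the samples.

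Of 40 germline genes, 20 were kept, with a median of 83.6%. None was unmethylated, 3 were intermediate and 6 were methylated: D1Pas1, Slc25a31, Tex101, Sycp1 (91.7%, a protein of the synaptonemal complex), Tuba3b (97.0%, a tubulin) and Rpl10l (94.8%, a ribosomal protein paralog). Lower levels were measured for Boll (21.97%, 15.8% to 32.2%), Stag3 (28.5%, a meiotic cohesin subunit), Dazl (35.9%, 25.6% to 46.1%, an RNA-binding protein) and Smc1b (49.9%, a meiotic cohesin subunit). On the 20 cytosines of Dazl read in all 12 samples the level was 3.70% to 10.7%, so its level depended on which part of the promoter was read.

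Of 35 imprinted genes, 29 were kept, with a median of 26.5%. Of these 8 were unmethylated, 6 intermediate and 0 methylated. Mest (50.2%, a hydrolase-fold protein), Snrpn (43.3%, a spliceosome protein), Zrsr1 (40.01%, a splicing factor paralog), Plagl1 (38.5%, a zinc finger factor) and Mkrn3 (45.0%) lay near the middle of the scale. Igf2 (a growth factor, 9.25%) and Phlda2 (placental growth, 5.47%) were low. Mest had 44.8%, 46.2% and 47.1% after DMSO and 41.6%, 57.1% and 40.5% after DBP, which overlapped. Peg10 and Sgce, which share cytosines, had 40.4% and 40.7% and were lowest in DMSO 3.

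Markers of squamous epithelium, the lining of the oral cavity, ranged from unmethylated to highly methylated. Of 40 markers, 25 were kept, with a median of 11.7%. Unmethylated in all samples were 14, among them Dsp (desmoplakin, 4.39%, 3.14% to 5.32%), Epcam (an adhesion molecule, 4.60%), Klf5 (a transcription factor, 4.61%), Ovol1 (a zinc finger factor, 7.33%) and Cdh1 (E-cadherin, 13.9%, 10.2% to 17.1%). The keratin genes Krt4 (88.5%, 75% to 97.1%), Krt1 (81.9%) and Krt13 (63.4%, 44.6% to 80.9%) and the transglutaminase gene Tgm1 (68.7%) had high levels, although Krt4 and Krt13 are the defining keratins of this lining. Of all 100 keratin and keratin-associated symbols (Krt), 17 were kept, with a median of 65.7%. The levels describe methylation, and expression was not analysed here.

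The tissue holds other cell types, whose markers had a range of levels. Of 35 skeletal muscle markers 13 were kept, with a median of 56.4%, from Actn2 (a sarcomere protein, 7.02%) and Myod1 (a muscle transcription factor, 12.3%) to Ttn (titin, 78.1%) and Cacna1s (a calcium channel, 78.4%). Medians were 23.5% for 9 of 18 fibroblast markers, 12.4% for 8 of 16 endothelial markers, 39.2% for 6 of 25 immune markers, 6.69% for 4 of 10 adipocyte markers and 16.6% for 7 of 12 markers of salivary gland and nerve. Zap70 (86.8%, a kinase of T cells) and Itgal (76.1%, a leukocyte integrin) were high and Ikzf1 (4.32%, a lymphoid transcription factor) was low.

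Of 38 tumor suppressor genes that are silenced by methylation in oral cancer, 32 were kept, with a median of 8.72% beside 6.92% over all kept promoters. Unmethylated in every sample were 26 of the 32, beside 71.6% of all kept promoters. Cdkn2a (the cyclin-dependent kinase inhibitor p16) had 4.53% (2.34% to 6.01%) and Cadm1 (an adhesion molecule) 3.77% (3.10% to 5.25%). In Cdkn2a the DMSO samples had 6.01%, 2.34% and 5.56% and the DBP samples 4.31%, 5.76% and 4.11%, and the 4 groups overlapped. Tcf21 (a mesenchymal transcription factor, 31.3%, 15.3% to 52.4%) was the highest of the list.

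Of 25 genes of the response to DBP-like compounds through the aryl hydrocarbon receptor, 12 were kept, with a median of 5.86%. In every sample 9 of these 12 were unmethylated, a share near the 71.6% of all kept promoters. Ahr, the receptor itself, had 2.98% (1.16% to 4.92%), Tiparp, a target that represses it, 3.30%, and Nfe2l2, a regulator of antioxidant genes, 6.22%. Cyp1a1, which activates polycyclic hydrocarbons, is poor in CpG (ratio 0.157) and had 27.0%, 19.2% and 38.1% in DMSO and 18.4%, 26.5% and 16.7% in DBP, which overlapped. All 10 genes that the study listed for a CpG near their start were kept, with a median of 8.80%. That list was chosen by the study on these samples.

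**Figure D3:**
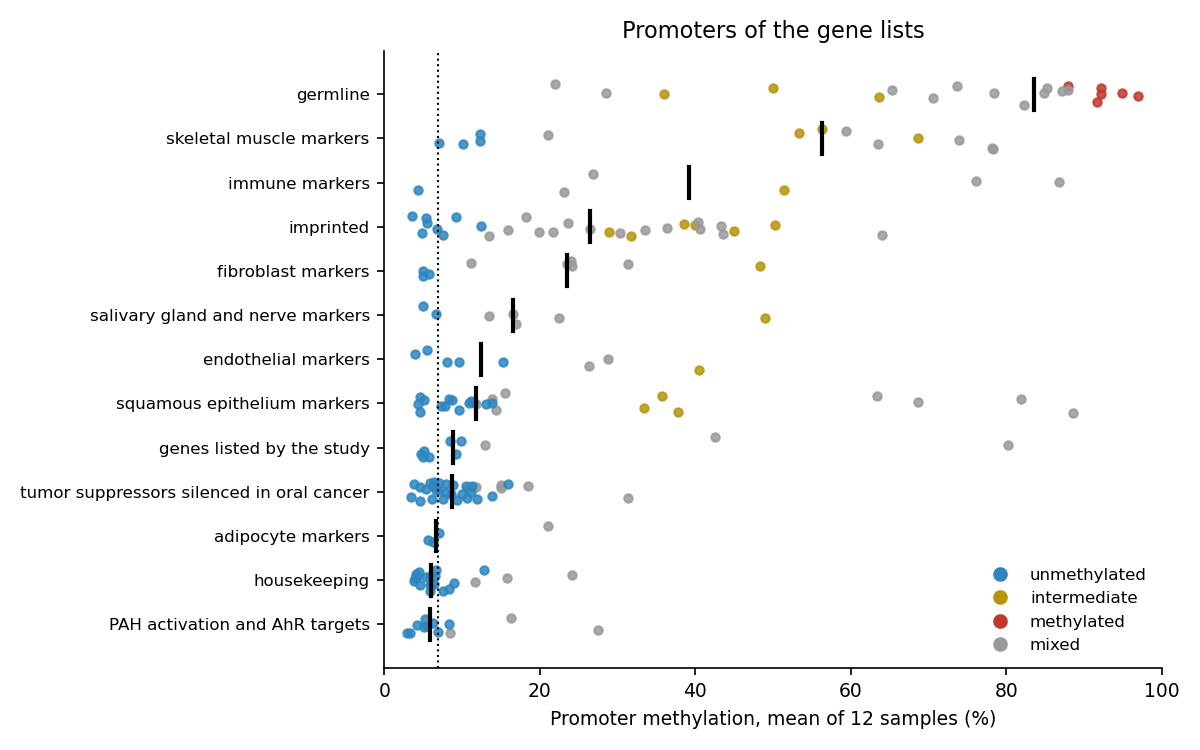
Methylation level (percent of CpG calls, mean of 12 samples) of every kept promoter in each gene list, a point per promoter, colored by class (mixed promoters crossed a limit), with the list's median as a bar and that of all kept promoters as a dotted line. Germline genes have a median of 83.6%, imprinted genes 26.5% and housekeeping genes 5.96%, beside 6.92% over all kept promoters.

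Families were also taken by symbol. Of 40 Hox genes, which set position in the embryo, 35 were kept with a median of 10.3%. Of these, 25 (71.4%) were unmethylated, a share near the 71.6% of all kept promoters. Of 365 zinc finger genes (Zfp), 185 were kept with a median of 6.28%, and of the ribosomal protein genes 43 of 88 Rpl (6.17%) and 33 of 56 Rps (5.91%). Reads of Rpl and Rps genes may be shared with their processed copies, so single members are uncertain. Of 1106 Olfr genes 10 were kept, with a median of 81.7%.

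The next question was whether the promoters as a whole differed between the groups. The mean promoter level was 12.9%, 14.8% and 14.4% in the DMSO samples, 12.9%, 13.2% and 12.8% in DBP, 13.5%, 12.4% and 12.8% in DBP+agent and 11.4%, 13.8% and 12.6% in DBP+BR. The groups overlapped. Group means of 14.02% ± 1.01, 12.96% ± 0.182, 12.9% ± 0.531 and 12.6% ± 1.16 (SD, n = 3) differed by at most 1.43 points, which did not exceed the spread between samples (exact permutation test of 4 groups, p = 0.242). DBP was lower than DMSO by 1.06 points (two-sided exact permutation test, p = 0.2, smallest possible 0.1), and by 0.522 points (p = 0.3, exact) on cytosines read in all 12 samples. Without DMSO 1 the difference was -1.63 points, and without DMSO 2 it was -0.661 points.

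The share of promoters over 80% was 2.29% ± 0.164 in DMSO, 2.04% ± 0.112 in DBP, 2.12% ± 0.0358 in DBP+agent and 2.14% ± 0.131 in DBP+BR (SD, n = 3). The share under 20% was 82.7% ± 2.64, 85.2% ± 0.294, 85.8% ± 0.846 and 85.4% ± 2.58. Neither differed between the 4 groups beyond the spread between samples (exact permutation tests, p = 0.170 and p = 0.266). Both calls rested on 1 library, since without DMSO 1 the group means of these shares differed by 0.344 points (p = 0.0308) and 4.60 points (p = 0.0392, exact permutation tests).

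**Figure D4:**
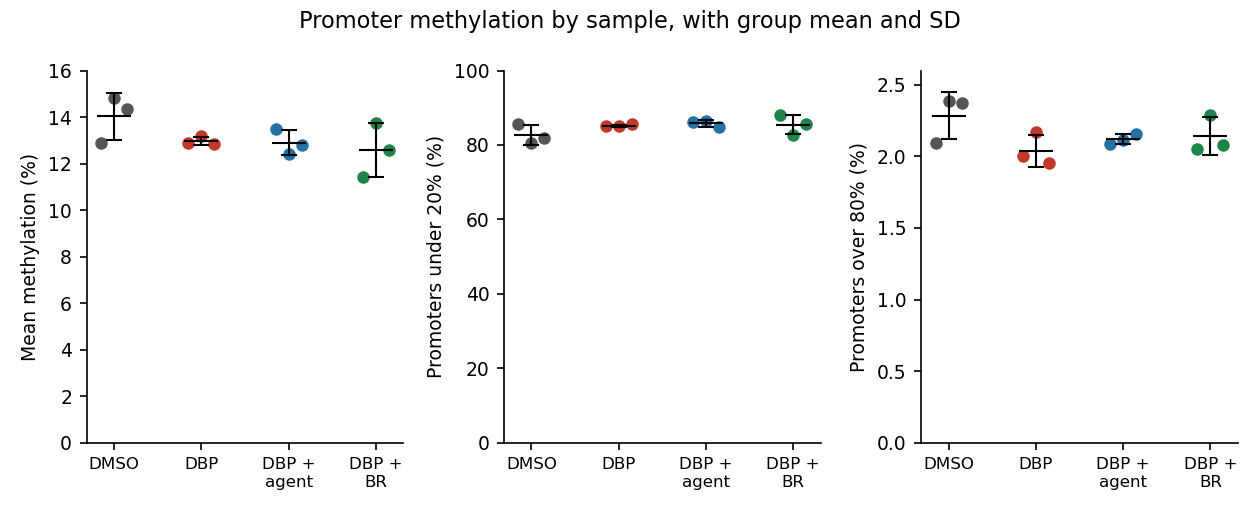
Mean promoter level, share of promoters under 20% and share over 80% (all in percent) for each of the 12 samples by group, with the group mean and SD. The 4 groups overlap in mean level, with 11.4% to 14.8% over all samples.

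DBP was compared with DMSO promoter by promoter to find which genes moved with the carcinogen. No single promoter passed. edgeR's quasi-likelihood test called 0 of 11303 promoters (0%) at a Benjamini-Hochberg q under 0.01 and a difference over 10 points, with a smallest q of 0.9999, and limma also called 0. At an unadjusted p under 0.05 edgeR had 410 promoters (3.63%), 129 higher (1.14%) and 281 lower (2.49%) in DBP, and limma had 661. The count of 410 was 954 without DMSO 1 and 193 without DMSO 2.

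Of the 10 promoters with the smallest p, 8 were lower in DBP. Parp8, a mono-ADP-ribosyltransferase, had 8.75%, 38.2% and 23.1% in DMSO and 3.75%, 5.71% and 4.65% in DBP. Dlgap3, a scaffold protein of synapses, had 41.7%, 76.9% and 53.3% against 23.1%, 25.97% and 33.2%. In both genes every DBP sample lay below every DMSO sample, as in 745 promoters in all (6.59%). The differences were -18.6 and -29.9 points (edgeR, q = 0.9999 for each).

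Kif19a, a motor protein of cilia, had 48.7%, 77.5% and 82.1% in DMSO and 16.7%, 25% and 33.02% in DBP. Rab1b, a GTPase of vesicle traffic, had 66.7%, 46.5% and 80% against 14.9%, 25.8% and 32.1%. These genes had the largest differences of the 10, -44.6 and -40.1 points, and their groups did not overlap. Their depth was low, with 30, 43 and 25 calls for Rab1b in the DMSO samples and 28 for Kif19a in DMSO 3. Fbxl12, a ubiquitin ligase subunit, was lower by 22.8 points, as was Srp68, a subunit of the signal recognition particle, and B3galt6, a glycosyltransferase, by 4.44 points. Svil, an actin-binding protein, had 18.9%, 6.55% and 9.41% in DMSO and 21.5%, 28.6% and 35.5% in DBP, a difference of 16.9 points. Gpi1, an enzyme of glycolysis, was higher by 8.26 points. In 535 promoters (4.73%) every DBP sample lay above every DMSO sample.

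The differences of these genes rested in part on which cytosines were read. On cytosines with a call in all 12 samples, 3 of the 10 differed by over 10 points, against 8 of 10 on all calls, and 8 of 10 kept their sign. On these shared cytosines 5 of the 10 had 20 or more calls in every sample. The difference was -4.42 points for Parp8, -1.85 for Kif19a, -22.2 for Dlgap3 and 28.9 for Svil. Their part in the result was not tested beyond these values.

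**Figure D5:**
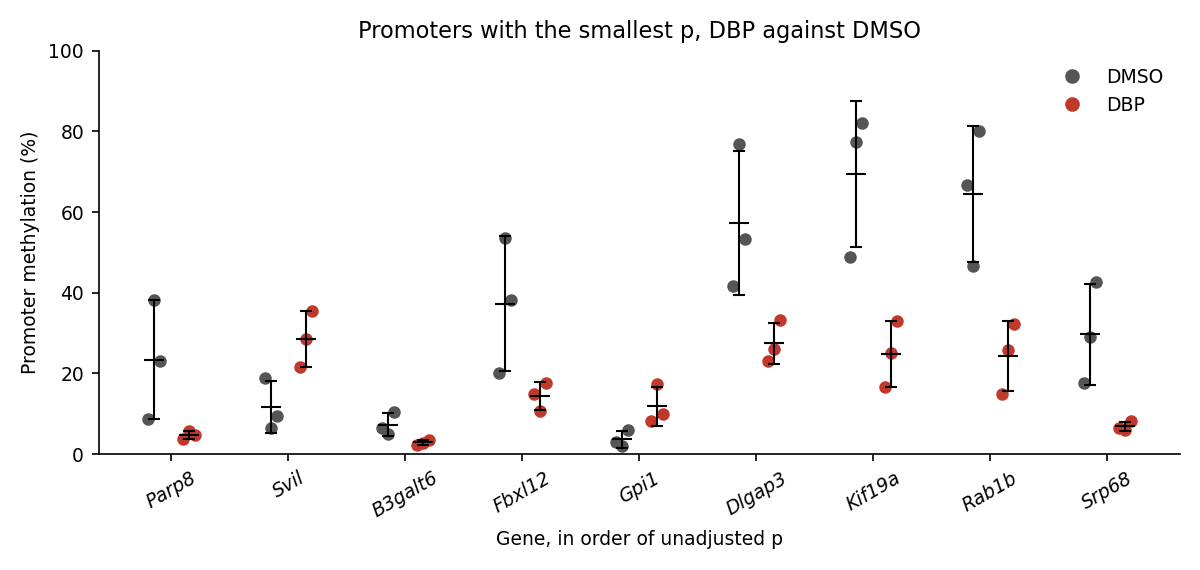
Methylation level (percent of CpG calls) in the 3 DMSO and 3 DBP samples (points, with mean and SD) for 9 of the 10 promoters with the smallest unadjusted p. The DBP points of Kif19a and Rab1b lie between 14.9% and 33.02%, below all DMSO points, and 7 of the 9 promoters shown were lower in DBP. The DMSO points of Rab1b rest on 25 to 43 calls each.

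In the lists, few members reached an unadjusted p under 0.05, beside the background of 3.63%. These were 0 of 32 tumor suppressors, 1 of 12 genes of the aryl hydrocarbon receptor response (Gclc, glutathione synthesis, -5.90 points), 1 of 20 germline genes (Tuba3b, -4.16 points) and 3 of 29 imprinted genes. The imprinted genes were Sgce (31.4 points), Peg10 (32.4 points) and Herc3 (7.20 points), of which Sgce and Peg10 share cytosines and were lowest in DMSO 3, where Sgce had 4% in 25 calls. Evpl (an epithelial cornified envelope protein, 13.8 points), Erg (13.8 points), Tnni2 (fast muscle troponin, -15.1 points) and Aqp5 (a salivary water channel, -11.1 points) were the marker genes. They were 1 of 25 squamous, 1 of 8 endothelial, 1 of 13 muscle and 1 of 7 salivary gland and nerve markers. Of the 10 genes listed by the study, Ermap, an erythroid membrane protein, had 65.3%, 60% and 72.7% in DMSO and 86.9%, 89.1% and 82.5% in DBP, a difference of 20.2 points with groups that did not overlap. The Ermap value is that of the pooled promoter, while the study listed single CpGs. It does not give the size or direction of the change at the listed CpG. None of the list members named here passed the test over all promoters (edgeR, q = 0.9999).

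DBP+agent was compared with DBP, where the agent is added to the carcinogen. No promoter differed beyond the spread between samples at the threshold used. edgeR and limma called 0 of 11303 (0%), and 194 promoters (1.72%) had an unadjusted p under 0.05 by edgeR, 120 higher (1.06%) and 74 lower (0.655%) in DBP+agent, and 247 by limma. The count of 194 was 342 without DBP+agent 1, 293 without DBP+BR 1, which shares the estimate of spread, and 126 without DBP 1.

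Fam124a had the smallest p (edgeR, unadjusted 0.000488, q = 0.9998), with 22.9%, 21.7% and 20.2% in DBP and 9.35%, 10.3% and 8.46% in DBP+agent. The groups did not overlap and differed by -12.2 points, and by -16.4 points on cytosines read in all 12 samples. Its DMSO samples had 16.9%, 12.4% and 13.7%, between these groups.

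The imprinted gene Zrsr1 lies within Commd1, a regulator of copper transport, and their promoters share cytosines. Zrsr1 had 50.0%, 47.6% and 39.7% in DBP and 32.9%, 29.8% and 27.0% in DBP+agent, a difference of -15.9 points. Commd1 had 37.6%, 35.4% and 34.3% against 24.1%, 24.0% and 21.1%, a difference of -12.7 points. In both genes every DBP+agent sample lay below every DBP sample, as in 412 promoters in all (3.65%, with 630 or 5.57% the other way), and the differences on cytosines read in all samples were -16.2 and -12.6 points. Since the promoters share cytosines, they are a single observation.

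The other named promoters went both ways. Tnfsf15, a cytokine of the TNF family, had 50.0%, 45.3% and 53.1% in DBP and 29.2%, 26.5% and 12.8% in DBP+agent. Mccc1, an enzyme of leucine breakdown, was higher by 26.2 points, Stk11ip, which binds the kinase LKB1, by 13.4, Lrrc4, a synaptic adhesion protein, by 11.9, Grm7, a glutamate receptor, by 6.50 and Ust, a sulfotransferase, by 3.74 points. 1110018J18Rik was lower by 3.66 points. All 10 kept their sign on cytosines read in all 12 samples, on which 9 had 20 or more calls in every sample, and there Mccc1 differed by 3.60 points. Of the list members, Grb10, Zrsr1 and Commd1 among the imprinted genes, Mylpf (-16.8 points) and Actn3 (10.5 points) among the muscle markers and 0 of 32 tumor suppressors had an unadjusted p under 0.05. They were 3 of 29 imprinted genes and 2 of 13 muscle markers, beside 1.72% of all kept promoters.

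DBP+BR was compared with DBP in the same way. edgeR and limma called 0 of 11303 promoters (0%). At an unadjusted p under 0.05 edgeR had 397 (3.51%), 104 higher (0.92%) and 293 lower (2.59%) in DBP+BR, and limma 502. The count of 397 was 672 without DBP+BR 1, 705 without DBP+BR 2 and 258 without DBP 1.

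Prss22, a serine protease of epithelia, had the largest difference of the 10 promoters with the smallest p. It had 65.8%, 45.8% and 46.3% in DBP and 19.05%, 20.9% and 7.02% in DBP+BR, a difference of -37.0 points (edgeR, q = 0.9998), with 21 calls in its shallowest sample. The groups did not overlap, as in 787 promoters with DBP+BR lower (6.96%) and 249 with DBP+BR higher (2.2%). Prss22 had 38.1%, 63.4% and 56.6% in DMSO, all above DBP+BR.

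Fam124a appeared here as well, with 8.37%, 8.80% and 14.1% in DBP+BR, lower than DBP by 11.2 points. The comparison shares the DBP samples with that of DBP+agent. Eif4a3, an RNA helicase of the exon junction complex, was higher by 9.35 points (23.4%, 12.8% and 10.1% against 5.29%, 6.38% and 6.66%) and Ssr3, a subunit of the translocon complex, by 6.35 points. Cep72 (centrosome), Ctns (the lysosomal cystine transporter), Shpk (a sugar kinase), Srr (serine racemase), Rbpms (an RNA-binding protein) and Smpd4 (a sphingomyelinase) were unmethylated promoters and were lower by 6.26, 4.06, 3.87, 3.51, 3.71 and 4.07 points. Ctns and Shpk share cytosines.

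Among the lists, Snrpn (-20.04 points), Peg12 (-9.84) and Rasgrf1 (-3.12) of the imprinted genes, Stag3 (15.8), Sycp3 (14.7) and Tuba3b (3.36) of the germline genes, Erg (-12.8) and Ucp1 (-12.2) had an unadjusted p under 0.05 in this comparison. They were 3 of 29 imprinted, 3 of 20 germline, 1 of 8 endothelial and 1 of 4 adipocyte members, beside 3.51% of all kept promoters. Of 32 tumor suppressors and 25 squamous markers, 0 did so. Snrpn had 47.5%, 59.1% and 53.7% in DBP and 37.0%, 16.3% and 47.0% in DBP+BR, and the groups did not overlap. None passed over all promoters (edgeR, q = 0.9998).

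The test of any difference between the 4 groups called 0 of 11303 promoters (0%, edgeR, smallest q = 0.9996, and 0 by limma), with 432 (3.82%) at an unadjusted p under 0.05 by edgeR and 653 by limma. Rabgef1, an exchange factor of endosomes, had the widest group means of the 10 named, 51.3 points apart. It had 70.8%, 83.2% and 81.5% in DMSO, 82.3%, 49.7% and 60.8% in DBP, 41.1%, 58.6% and 39.5% in DBP+agent and 7.10%, 49.0% and 25.6% in DBP+BR. Polr3gl, a subunit of RNA polymerase III, had 70.9%, 67.6% and 50.0% in DMSO, and 22.7%, 33.9% and 30.9% in DBP+BR, and Phf12, a chromatin protein, had group means 32.8 points apart. The count of 432 was 760 without DMSO 1, 235 without DMSO 2, 725 without DBP+BR 1 and 894 without DBP+BR 2.

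The spread of a promoter between samples was then set beside counting error. The median SD of a promoter within a group was 2.43 points in DMSO, 1.67 in DBP, 1.80 in DBP+agent and 2.07 in DBP+BR, against 2.19, 1.53, 0.855 and 0.796 from counting error alone. Intermediate promoters had larger median SDs than methylated ones, 7.69, 5.97, 5.84 and 9.07 points against 3.34, 2.86, 2.85 and 2.82. The limits of each class bound its spread, so this order is in part set by the choice of classes. Counting error alone gave 4.61, 3.71, 2.09 and 2.00 points for intermediate and 3.29, 2.83, 1.63 and 1.68 for methylated promoters. An SD over 10 points was found for 862 promoters (7.63%) in DMSO and 1058 (9.36%) in DBP+BR, against 321 and 319 in the other groups. Calls on the same read or fragment are not independent, so the counting error is a lower limit.

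Over all 12 samples, the median range of a promoter was 8.35 points, and 2025 promoters (17.9%) ranged over more than 20 points. Tpst1, a tyrosine sulfotransferase, had the widest range of the promoters with at least 50 calls in every sample, 6.44% in DBP+BR 1 to 90.6% in DMSO 3. It had 44.4%, 80.1% and 90.6% in DMSO, 41.3%, 51.4% and 25.1% in DBP, 32.7%, 36.1% and 62.2% in DBP+agent and 6.44%, 89.6% and 51.3% in DBP+BR, so samples of a group were as far apart as the groups. On the 9 cytosines of Tpst1 read in all 12 samples the level was 85.4% to 100%.

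The same held for other promoters of wide range. Clcn7, a lysosomal chloride transporter, ran from 19.3% to 87.1% on all calls and from 87.6% to 97.5% on shared cytosines. Axin1, a scaffold of Wnt signalling, ran from 8.90% to 88.6% and from 83.6% to 94.9%, and Zfp628 from 12.5% to 86.5% and from 82.0% to 90.8%. Across 9455 promoters, Pearson correlations between samples were 0.779 to 0.972 on all calls, 0.804 to 0.969 on shared cytosines, and 0.933 to 0.976 when each shared cytosine was weighted equally. Of these promoters, 1406 (14.9%) ranged over more than 20 points on all calls and 1518 (16.1%) on shared cytosines. With equal weights 850 (8.99%) did so. Reading the same cytosines alone thus did not lower the number of wide ranges, unlike in the promoters named above.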

How the data were processed

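ERRBS was performed on 12 samples, 3 in each of 4 groups, with groups and replicate numbers taken from the labels. The submitters' processing notes name Trim Galore 0.3.3, Bismark 0.10.1 and mm9. For each CpG cytosine on each strand, the authors deposited the count of methylated and of unmethylated calls, without normalization, and the percent methylated, which was not used here. Duplicate reads cannot be recognised from such counts, so intervals cover counting error only. All 5060288 autosomal cytosines lay at a CpG of the reference. B6C3F1 is a hybrid, and CpGs lost or gained in a parent strain were not removed.

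Counts were pooled over the 1343266 cytosines within 1000 bp of a start, and 11303 promoters with at least 20 calls in every sample were kept. Of these, 2373 share a cytosine with another. Promoters were compared with the quasi-likelihood test of edgeR 4.0.16 (R 4.3.3) on methylated and unmethylated counts, with all 12 samples in the fit, and called at a Benjamini-Hochberg q under 0.01 and a difference over 10 points. The test was checked on simulated data for these promoters, with a single value of spread between samples for all of them. Of 100 changes of 15 points it called 18 for DBP against DMSO, 39 for DBP+agent and 35 for DBP+BR against DBP. Of 100 changes of 30 points it called 84, 92 and 91, with 0 false calls. Most changes of 15 points were thus missed under that single spread. The measured spread was uneven, with a median SD in DMSO of 1.84 points in unmethylated and 7.69 in intermediate promoters. Recovery of changes of 15 or 30 points at the measured spread of each promoter was not tested. limma 3.58.1 on log2 ratios with a pseudocount of 1, and a logistic likelihood ratio test as the study states for single CpGs, were alternatives. Single values per sample were compared by exact permutation (369600 assignments for 4 groups). Named genes were the 10 with the smallest p in each comparison, the 8 of each class with most calls in the shallowest sample (without provisional Gm and Rik symbols), the deepest members of each list, the 10 with the largest mean SD within groups among those with at least 50 calls, and others stated to be chosen after their values were seen. Members and lists were chosen with earlier results of these data known. Calculations used Python 3.11.15, NumPy 2.4.6, pandas 2.3.3 and SciPy 1.17.1. A few genes that these rules name are not reported here.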

Additional observations from a re-analysis of the deposited data

How the results depend on the processing

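The count of promoters called was 0 by edgeR in all 4 comparisons on all calls and under each edgeR and limma alternative: at least 10 or 50 calls, cytosines read in all 12 samples, deepest cytosines removed, a 500 bp window, overlapping promoters merged, only the 2 groups, q under 0.05, a difference over 25 points or no minimum, the replicate block, thinned libraries, and each of 12 samples left out (0 to 0). With q under 0.05, leaving out DBP+BR 1 or DBP+BR 2 gave q = 0.0332 for Stt3a and q = 0.0329 for Atrn by edgeR in the 4-group test. The logistic likelihood ratio test, which has no term for spread between samples, called 344 promoters for DBP against DMSO (41 higher, 303 lower), 131 for DBP+agent, 252 for DBP+BR and 1169 for the 4 groups. The upstream minus downstream flank difference of 1.51 points was -0.659 with at least 50 calls, 0.125 on cytosines read in all 12 samples and 0.303 with thinned libraries, and the cause was not tested. The range of group means of the share over 80% became 0.236 points (exact permutation p = 0.0332) with at least 50 calls. With the replicate block the range for flank minus core stayed 0.377 points (exact permutation p = 0.0451), and no other call changed under the block. Samples with the same number correlated by -0.116 to 0.439 in their deviations, and those with other numbers by -0.452 to 0.289. Of 12 samples, 4 correlated best with their own number. These values do not settle whether the numbers pair the samples. Leaving out samples in turn gave ranges of group means of 1.03 to 2.01 points for the mean level, 0.190 to 0.344 for the share over 80%, 2.10 to 4.60 for the share under 20% and 0.260 to 0.539 for flank minus core, a DBP minus DMSO difference of -1.63 to -0.661 points and an upstream minus downstream difference of 0.767 to 2.19 points. The thinned libraries and equal weights were chosen after seeing the data. Depth limits the DMSO group most, with 20 or more calls in 11787 promoters of DMSO 3 against 15339 of DBP+BR 1.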
